A study of Saccharomyces cerevisiae with 32 samples.

Results

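The comparison set 3 expression arrays from one phase of a yeast metabolic oscillation against 3 arrays from a phase 200° later. The first window held the samples labelled with phase angles of 394.3°, 406.8° and 419.2°, taken at 10.2, 10.26667 and 10.33333 h. The second held those of 593.8°, 606.2° and 618.7°, taken at 11.26667, 11.33333 and 11.4 h. The labels count phase on past a full turn of 360°, so the first window lies at 34° to 59° of a turn. These 6 arrays were taken by their labelled times out of 32 in the series, and every S. cerevisiae gene on the array was considered. The windows were chosen with earlier results of these data known. All 6 samples, like the rest of the series, came from 1 continuous culture of the budding yeast strain CEN.PK113-7D, mating type MATa, with no engineered allele and no added drug named in the labels. The culture was fed glucose medium at 30 °C and pH 4.0, its dissolved oxygen oscillated with a period of about 2 h, and samples were drawn 4 min apart. Both windows therefore share strain, medium and vessel and differ in time and phase. The 3 arrays of a window are successive samples of the same culture and not separate cultures, so the p-values measure only the spread between neighbouring samples. The labels do not place phase 0° relative to oxygen uptake.

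Budding yeast in continuous culture can alternate between a stretch of rapid oxygen uptake, in which transcripts for making ribosomes, amino acids and nucleotides are abundant, and stretches in which transcripts for using fats and storage sugars are abundant. Trehalose and glycogen are the storage sugars, peroxisomes are the site of fatty acid oxidation in yeast, and autophagy returns cell content to the vacuole. Making a ribosome needs RNA polymerase I for the large ribosomal RNA, RNA polymerase III for 5S and transfer RNA, and a large set of assembly factors that fold and trim the RNA in the nucleolus.

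Signals are the deposited array intensities after quantile normalization, differences are log2 values at 394-419° minus 594-619° with standard errors (SE, n = 3 arrays in each window), and signals of a gene are listed in phase order. A gene was called when limma's moderated test gave a Benjamini-Hochberg adjusted p under 0.05 over all 5377 genes tested. As deposited, S. cerevisiae probe sets had a median signal of 1524 to 1798 on the arrays at 394-419° and 1820 to 2069 at 594-619°, against 6.6 to 8.4 for probe sets of fission yeast, which served as background. Arrays correlated with r of 0.978 to 0.997 within a window and 0.792 to 0.827 between windows, across genes. The log2 ratio of the 3' to the 5' probe set of actin, a sign of RNA integrity, was 0.30 to 0.38 at 394-419° and 0.36 to 0.43 at 594-619°. By the array running numbers in the labels, 10, 14 and 16 at 394-419° and 19, 8 and 1 at 594-619°, arrays were not numbered in time order. The bacterial poly-A control transcripts read 7.50 to 7.76 on the log2 scale at 394-419° and 8.33 to 8.46 at 594-619°, so their ranges did not overlap. Their part in the results was not tested beyond the scaling given next. Scaling by these controls moved the median difference of all genes from 0.0048 to 0.60, where scaling by the array median gave 0.019 and the values as deposited gave -0.20.

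Between the windows 4221 of 5377 genes (78.5%) were called. At 394-419° 2095 genes (39% of those tested) were called higher and 2126 (39.5% of those tested) lower. Differences of at least 2-fold were called for 748 genes higher (13.9%) and 705 genes lower (13.1%) at 394-419°. The lower side held the more extreme genes: 84 genes were called at least 8-fold lower and 28 at least 8-fold higher, and 14 against 1 passed 16-fold. The 3 arrays of one window lay wholly above or below those of the other for 4411 genes (82%). The division between higher and lower rested on the scaling: 49.6% of calls were higher with quantile normalization, 37.4% with deposited values, 50.5% with median scaling and 80.8% with poly-A scaling. Of the 1453 genes called at least 2-fold, 0 turned in sign under these 3 other scalings, whereas 853 of the 4221 called genes did so with poly-A scaling. That 0 was largely set by the cut-off, since these scalings moved the median difference to at most 0.60, short of a 2-fold step. A pellet mixes all cells, so a change in the share of cells at some stage and a change of RNA per cell cannot be told apart.

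**Figure D1:**
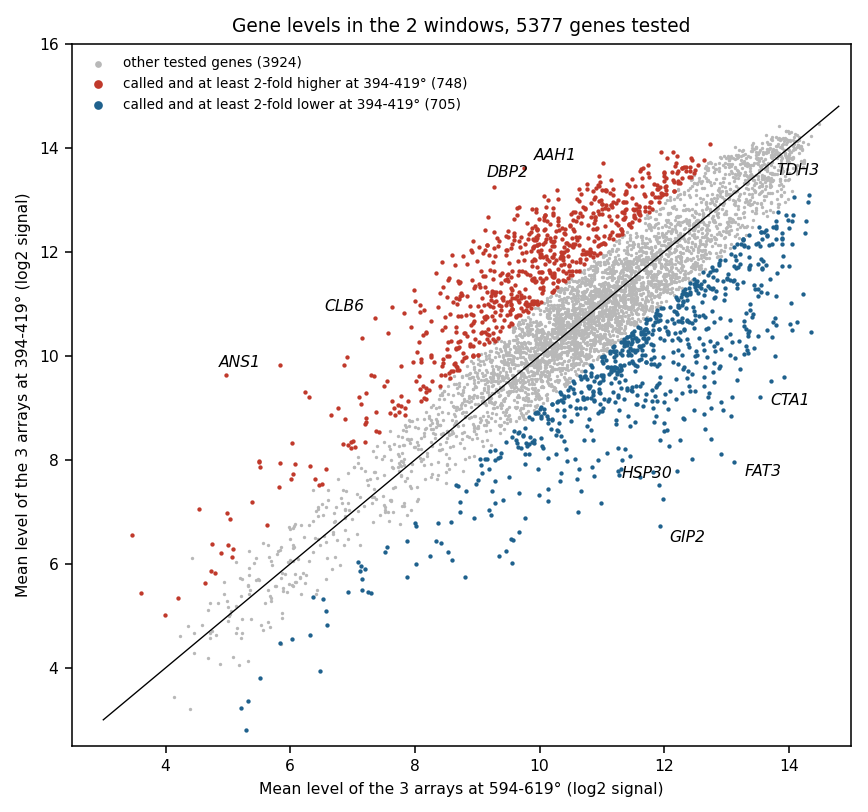
Each point is 1 of 5377 genes, with the mean log2 signal of the 3 arrays at 594-619° on the x axis and at 394-419° on the y axis; the line marks equal levels. Red points are the 748 genes called at least 2-fold higher and blue points the 705 called at least 2-fold lower at 394-419°, and some blue genes such as GIP2 lie farther from the line than nearly all red ones.

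This pair was set beside 4 others 200° apart, with 3 arrays a side and windows that share no array, and of these 5 it had the most genes called at least 2-fold. Windows that start at other samples were not compared. Since the windows were chosen with earlier results of these data known, this rank is a description. There were 1453 (27%), against 1060 (19.7%) for 506-531° with 706-731°, 828 (15.4%) for 357-382° with 556-581°, 549 (10.2%) for 469-494° with 669-694° and 276 (5.13%) for 432-457° with 631-656°. With deposited values the order was the same, with 1573, 1128, 831, 569 and 258 genes. The pairs share 1 culture and differ in how steeply levels moved within a window, since the median SD within a window ran from 0.0547 at 594-619° to 0.199 at 432-457°.

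The gene farthest apart upwards was ANS1 (YHR126C), a putative GPI-anchored protein, with signals of 781, 908 and 709 at 394-419° and 24, 26.2 and 41.2 at 594-619°. The high window stood 25.4-fold above the low one, a difference of 4.67 ± 0.21 (adjusted p = 6.07e-06). YBR238C, which encodes a mitochondrial protein, followed with 1305, 970.1 and 591 against 54.2, 49.4 and 62.2, a difference of 4.00 ± 0.28. Its 3 high arrays were falling, whereas those of ANS1 had no such order. DBP2 (YNL112W), an RNA helicase, read 10621, 9977 and 8743 against 570.3, 632 and 653 (3.98 ± 0.09, adjusted p = 1.8e-06), and AAH1 (YNL141W), the adenine deaminase that turns adenine into hypoxanthine, read 13159.8, 12974 and 11614 against 758, 911 and 915 (3.87 ± 0.10). In purine synthesis the IMP dehydrogenase gene IMD4 (YML056C) differed by 3.49 ± 0.10, and in ribosomal RNA processing the helicase gene DHR2 (YKL078W) by 3.37 ± 0.18. CLB6 (YGR109C), a cyclin of S phase, rose within the window through 1255, 1851 and 2051, all above its 181, 159.1 and 149 at 594-619°. The remaining genes were TOD6 (YBL054W), a repressor that binds the PAC motif of ribosome assembly genes (3.35 ± 0.14), PFK27 (YOL136C), which makes the glycolytic activator fructose 2,6-bisphosphate (3.31 ± 0.21), and FSH1 (YHR049W), a putative serine hydrolase (3.31 ± 0.12).

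In the opposite direction GIP2 (YER054C), a putative regulatory subunit of the phosphatase that acts on glycogen synthase, read 108.8, 80.7 and 127 at 394-419° and 4035, 3702 and 3953 at 594-619°. That is 36.9-fold, with a difference of -5.21 ± 0.16 (adjusted p = 2.28e-06). FAT3 (YKL187C), needed for fatty acid uptake, read 367, 203 and 199 against 9586, 8779 and 8474 (-5.17 ± 0.24). Its neighbour in the genome, PXA2 (YKL188C), a subunit of the peroxisomal importer of long-chain fatty acids, read 253, 120.4 and 112 against 3951, 4124 and 4082 (-4.73 ± 0.30). Both were higher on the first array of the window than on the next 2, and both stayed far below the other window. YIG1 (YPL201C), which has been linked to glycerol production, differed by -4.79 ± 0.10. HSP30 (YCR021C), a stress protein of the plasma membrane, read 259.1, 273 and 243 against 5791, 5436 and 5516, a difference of -4.42 ± 0.06 with little spread in either window. PHM7 (YOL084W) (-4.40 ± 0.06), the reticulon-like RTN2 (YDL204W) (-4.40 ± 0.13), SOL4 (YGR248W) of the pentose phosphate pathway (-4.35 ± 0.21), peroxisomal catalase CTA1 (YDR256C) (-4.34 ± 0.17) and EGO4 (YNR034W-A) (-4.32 ± 0.13) made up the rest. EGO4 read 949, 678 and 719.8 at 394-419° and 15688, 15382 and 15281 at 594-619°.

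**Figure D2:**
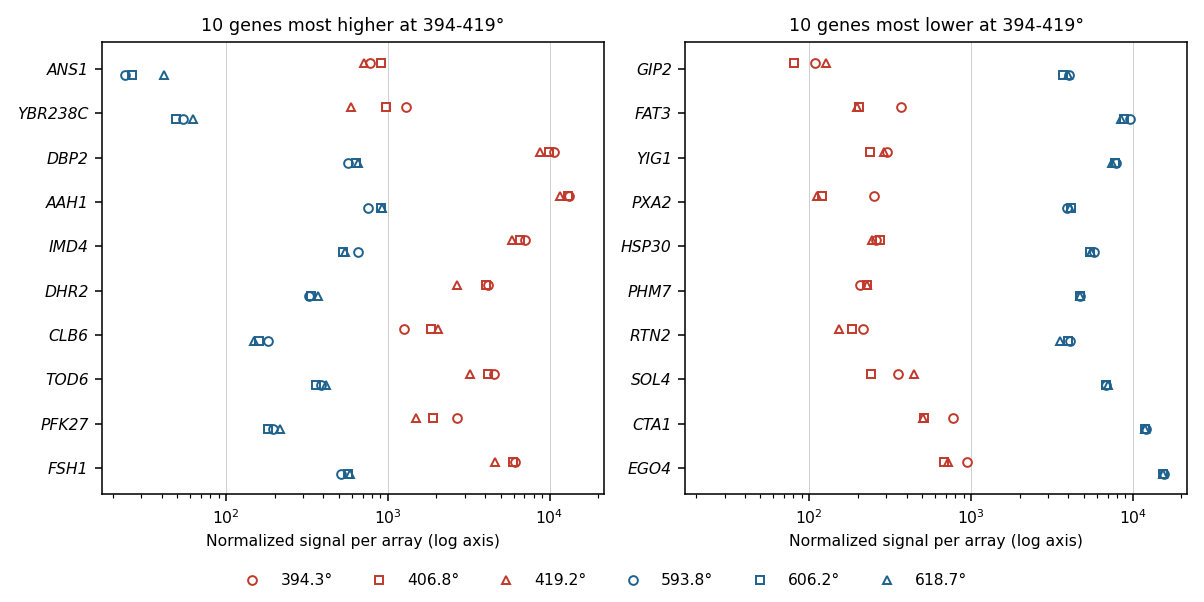
Normalized signal on each of the 6 arrays (log axis; red 394-419°, blue 594-619°, symbols mark the phase) for the 10 genes most higher and the 10 most lower at 394-419°. In each of the 20 genes the 3 red and 3 blue points do not overlap; ANS1 lies at 709 to 908 in red and 24 to 41.2 in blue.

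The counts of list members called, here and below, stand beside 39% of all genes tested called higher and 39.5% called lower. At 2-fold or more those shares were 13.9% and 13.1%. Ribosome assembly moved as a block. All 45 tested genes of the small subunit processome were called higher at 394-419°, each by at least 2-fold, with differences from 1.40 to 3.37 and a median of 2.35, where the median of all genes was 0.0048. Besides DHR2, the largest were NOP14 (YDL148C) (3.14 ± 0.12) and KRR1 (YCL059C) (3.07 ± 0.07), both factors of the early small subunit. KRR1 read 4078, 4659 and 4420.0 against 540.2, 506 and 514. All 59 factors of the large subunit were higher, 58 of them by 2-fold or more (median 2.20), led by RIX1 (YHR197W) (3.15 ± 0.11), the helicase DRS1 (YLL008W) (3.12 ± 0.12) and NOP7 (YGR103W) (3.04 ± 0.10). RIX1 read 4165, 4285 and 3266 against 416, 453 and 442. The 9 genes of the snoRNP list were all higher (median 1.72). Besides NSR1 they encode proteins that carry the guide RNAs that modify ribosomal RNA. In that group NSR1 (YGR159C), a nucleolar RNA-binding protein, read 14181, 14352 and 11798 against 1989, 1993 and 2226 (2.69 ± 0.10), ahead of GAR1 (YHR089C) (1.95 ± 0.05) and NOP56 (YLR197W) (1.92 ± 0.07). The least moved of these 3 lists, SSF2 at 0.92, still exceeded the median difference of all genes; it is named after its value was seen.

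RNA polymerase I genes were higher for 12 of 14 (median 1.69). The subunit genes RPA49 (YNL248C) (7809, 7867 and 6717 against 1110.0, 1103 and 1097, 2.75 ± 0.07), RPA43 (YOR340C) (2.58 ± 0.10) and RPA12 (YJR063W) (2.38 ± 0.12) led. RRN10 (YBL025W), of the upstream factor that loads the polymerase, was the exception at -0.26 ± 0.10 (adjusted p = 0.0471), with 0.094 under poly-A scaling. RNA polymerase III genes were on both sides. Of 21 genes 14 were higher, led by the subunits RPC17 (YJL011C) (2.03 ± 0.15), RPC31 (YNL151C) (1.94 ± 0.08) and RPC53 (YDL150W) (1.93 ± 0.12). The 4 lower ones included TFC3 (YAL001C) (-0.87 ± 0.07) and TFC4 (YGR047C) (-0.49 ± 0.05, turning to 0.065 under poly-A scaling), subunits of the promoter-binding factor TFIIIC, and MAF1 (YDR005C), the repressor of the enzyme (-0.69 ± 0.07). MAF1 read 1448, 1593 and 1676 at 394-419° and 2468, 2474 and 2649.9 at 594-619°, opposite to these subunits. Of the other factor genes, TFC1 was lower, 3 were not called, and BDP1 (YNL039W) (0.41 ± 0.06) and TFC7 (YOR110W) (0.19 ± 0.05, but -0.14 with deposited values) were called higher, the last pair named after their values were seen.

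For transfer RNA, all 32 modification genes were higher (median 1.55). TRM11 (YOL124C), the catalytic subunit of a methyltransferase, read 4457, 3723 and 2457 against 390.2, 398 and 412 (3.10 ± 0.21). DUS3 (YLR401C), a dihydrouridine synthase (2.92 ± 0.09), and PUS1 (YPL212C), a pseudouridine synthase (2.48 ± 0.16), came next. Cytosolic aminoacyl-tRNA synthetases were higher for 19 of 20 (median 0.90), with lysyl-tRNA synthetase KRS1 (YDR037W) at 2.62 ± 0.20, tryptophanyl-tRNA synthetase WRS1 (YOL097C) at 1.53 ± 0.06 and the prolyl enzyme YHR020W at 1.34 ± 0.05. The KRS1 signals of 1643, 2588 and 2655 against 384, 383 and 325 place its first array below the next 2. Initiation and elongation factors were higher for 29 of 33 (median 0.77), among them the scaffold eIF4G gene TIF4631 (YGR162W) (1.78 ± 0.06), the helicase DED1 (YOR204W) (1.70 ± 0.06) and GCN3 (YKR026C) of the exchange factor eIF2B (1.65 ± 0.08). Karyopherins, which carry proteins and RNA through nuclear pores, and their Ran partners were higher for 13 of 18, with SXM1 (YDR395W) (1.75 ± 0.05), LOS1 (YKL205W), the exporter of transfer RNA (1.59 ± 0.05), and KAP123 (YER110C), an importer of ribosomal proteins (1.41 ± 0.06). Of the 8 CCT chaperonin genes, which fold actin and tubulin, 5 were higher, with CCT5 at 0.59 ± 0.05, CCT7 at 0.47 ± 0.10 and CCT2 at 0.44 ± 0.06.

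By array signal, cytosolic ribosomal proteins were higher by far less than the factors that assemble them. Whether the brightest signals still rise in proportion to RNA was not tested. For the large subunit 56 of 69 genes were higher (median 0.37, 4 by 2-fold or more), and for the small subunit 41 of 52 (median 0.39, 3 by 2-fold or more). A few copies moved more: RPL13A (YDL082W) read 13131, 13585 and 13531 against 4906, 4559 and 4563 (1.52 ± 0.05), RPL9A (YGL147C) differed by 1.33 ± 0.06, RPL22B (YFL034C-A) by 1.30 ± 0.10 and RPS26B (YER131W) by 1.23 ± 0.05. RPS19A (YOL121C) differed by 1.04 ± 0.08, and RPS10B (YMR230W) (1.11 ± 0.04) was read from a probe set that can match several genes. Only RPL15B (YMR121C) (-0.32 ± 0.06) and RPL43A (YPR043W) (-0.17 ± 0.05) were called lower, and both turned positive under poly-A scaling (0.31 and 0.67), RPL43A also under median scaling (0.094). Of the ribosomal protein genes tested, 10 of the large and 13 of the small subunit came from probe sets with matches to several genes.

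Amino acid synthesis was higher at 394-419° in all 4 of its lists. Sulfur assimilation with methionine and cysteine had 25 of 33 genes higher (median 0.74). MET16 (YPR167C), the PAPS reductase, read 9892, 10186 and 8537 against 2087, 2406 and 2505 (2.03 ± 0.10), and MET8 (YBR213W), needed for siroheme (2.01 ± 0.10), and ATP sulfurylase MET3 (YJR010W) (1.76 ± 0.16) followed. MET3 was itself rising at 594-619°, with 1869, 2146 and 2859.8. The one lower gene, STR2 (YJR130C) (-0.52 ± 0.07; 0.12 under poly-A scaling), makes cystathionine from cysteine. In branched-chain and lysine synthesis 17 of 21 were higher (median 0.53), including threonine deaminase ILV1 (YER086W) (1.47 ± 0.05) and saccharopine dehydrogenase LYS1 (YIR034C) (1.16 ± 0.08). The aromatic, histidine and arginine list had 24 of 26 higher (median 0.56). Chorismate mutase ARO7 (YPR060C) read 3121, 3096 and 2752 against 562, 543 and 555 (2.43 ± 0.06), well ahead of HIS1 (YER055C) (1.22 ± 0.05) and chorismate synthase ARO2 (YGL148W) (1.16 ± 0.06). Serine, glycine and one-carbon genes were higher for 16 of 19 (median 0.81). The mitochondrial C1-tetrahydrofolate synthase MIS1 (YBR084W) (9050.3, 9514 and 9732 against 1429, 1668 and 1665, 2.57 ± 0.08), phosphoserine phosphatase SER2 (YGR208W) (1.76 ± 0.07) and MTD1 (YKR080W) (1.72 ± 0.14) led them.

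Purine and pyrimidine synthesis had 33 of 36 genes higher, 20 by 2-fold or more (median 1.13). Besides AAH1 and IMD4, URA7 (YBL039C), the major CTP synthase, read 9703, 9613 and 8647 against 1210.3, 1268 and 1238 (2.91 ± 0.06, adjusted p = 1.5e-06). The 3 lower genes each have a paralogue for the same step. URA8 (YJR103W), the second CTP synthase, read 2012, 1992 and 2036 against 4849, 4699.7 and 4709.9 (-1.24 ± 0.04), opposite to URA7. URA10 (YMR271C), the minor orotate phosphoribosyltransferase, differed by -2.54 ± 0.09. ADE16 (YLR028C), one of the pair that completes the purine ring, differed by -0.70 ± 0.05 and was near 0 (0.021) under poly-A scaling.

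Cell cycle genes were on both sides. G1 cyclins and Start genes were higher for 9 of 15 (median 0.46), among them PCL1 (YNL289W), a G1 cyclin of the kinase Pho85, which read 3119, 4238 and 4621 against 597, 602 and 545 (2.76 ± 0.15), its relative PCL2 (YDL127W) (2.33 ± 0.12) and CLN2 (YPL256C), a G1 cyclin of Cdc28 (2.18 ± 0.12). The median of this list stayed positive under the other scalings. DNA replication genes were higher for 38 of 46 (median 0.80). DPB2 (YPR175W), a subunit of DNA polymerase epsilon, read 1744, 2019 and 2459 against 412, 445 and 369.6 (2.33 ± 0.14), and the loading factor CDC6 (YJL194W) (2.24 ± 0.08) and the large ribonucleotide reductase subunit RNR1 (YER070W) (2.15 ± 0.14) were close behind. Another subunit of the same polymerase, DPB3 (YBR278W), lay the other way at -0.57 ± 0.12 and at -0.0041 under poly-A scaling. In the cohesin and repair list 15 of 18 were higher (median 0.65), with the cohesin subunit MCD1 (YDL003W) at 2.44 ± 0.15 and the checkpoint kinase RAD53 (YPL153C) at 1.62 ± 0.17. B-type cyclins and mitotic genes were higher for 16 of 25 (median 0.32): after CLB6 came its S-phase partner CLB5 (YPR120C) (1.33 ± 0.10) and the kinase KIN3 (YAR018C) (1.25 ± 0.07).

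Histones were lower for 8 of 10 genes at 394-419°, with a median of -0.37 (-0.17 with median scaling) that turned to 0.41 under poly-A scaling. The linker histone HHO1 (YPL127C) (3688, 4176 and 5403 against 8569, 7764 and 7954, -0.89 ± 0.14) and the variant HTZ1 (YOL012C) (-0.69 ± 0.10) were lowest and stayed negative under it, whereas the core histone gene HTA1 (YDR225W) (-0.51 ± 0.05) turned to 0.34. Genes for separating daughter from mother were lower for 9 of 12, with a median of -0.52 and 0.19 under poly-A scaling. The chitinase CTS1 (YLR286C) differed by -0.80 ± 0.08 (0.029 with poly-A scaling), DSE1 (YER124C) by -0.78 ± 0.21 and the glucanase-like SCW11 (YGL028C) by -0.68 ± 0.14. Neither list reached 2-fold in any member.

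In glucose use, isoenzymes for one step often lay apart. Hexokinase 2 (HXK2 (YGL253W)), the enzyme of glucose-rich growth, was higher at 0.35 ± 0.07, while HXK1 (YFR053C) (2790.2, 3239 and 6321 against 16134, 14979 and 14998, -2.00 ± 0.30), glucokinase GLK1 (YCL040W) (-1.63 ± 0.16) and its relative EMI2 (YDR516C) (-2.44 ± 0.20) were lower. Of glyceraldehyde-3-phosphate dehydrogenases, TDH3 (YGR192C) overlapped between windows at 0.01 ± 0.06 (95% confidence interval from -0.12 to 0.15), and TDH1 (YJL052W) was lower at -0.48 ± 0.10 but 0.37 with poly-A scaling. Pyruvate kinase CDC19 (YAL038W) was not called at -0.10 ± 0.05 (interval from -0.22 to 0.01), whereas PYK2 (YOR347C) was lower at -1.68 ± 0.11. The 2 kinases that make fructose 2,6-bisphosphate moved in opposite directions: PFK27 read 2667, 1903 and 1502 against 194, 181 and 215, and PFK26 (YIL107C) read 481, 491 and 738 against 4051, 3614 and 3664 (-2.75 ± 0.17). The phosphoglycerate mutase homologue GPM2 (YDL021W) was lower at -3.39 ± 0.20 and the minor pyruvate decarboxylase PDC6 (YGR087C) higher at 1.42 ± 0.19. In all 19 of 28 glycolysis and fermentation genes were lower and 3 higher. Their median of -0.26 was -0.017 with median scaling and turned to 0.56 under poly-A scaling.

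Genes of hexose transport and sensing lay on both sides, with 14 of 22 genes lower, 3 higher and a median of -0.37 (0.19 under poly-A scaling). HXT4 (YHR092C), a high-affinity transporter, read 4813, 4977 and 4548 against 761, 788 and 756 (2.63 ± 0.05), and HXT2 (YMR011W) was higher too at 0.81 ± 0.08. HXT5 (YHR096C), the transporter of slow growth, read 1894, 1063 and 1158 against 11758, 10916 and 12045 (-3.12 ± 0.22), and HXT10 (YFL011W) differed by -3.54 ± 0.20. STD1 (YOR047C), which controls the expression of hexose transporters, was higher at 1.04 ± 0.08. Glycerol-3-phosphatases, the last step of glycerol synthesis, were both higher, GPP2 (YER062C) by 1.84 ± 0.19 and GPP1 (YIL053W) by 1.47 ± 0.07. The glycerol-3-phosphate dehydrogenase gene GPD1 (YDL022W), of the step before, lay the other way at -2.63. It is named after its value was seen and is not among the genes followed below when arrays were left out.

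The pentose phosphate pathway, which makes NADPH and ribose, was split as well. SOL3 (YHR163W) was higher at 0.41 ± 0.05 and its paralogue SOL4 read 354, 240.97 and 442 against 6834, 6849.8 and 7016. Transketolase TKL1 (YPR074C) was higher at 0.54 ± 0.05, while TKL2 (YBR117C) read 677, 381 and 221.4 against 6694, 6289 and 6455 (-4.06 ± 0.37). GND1 (YHR183W) overlapped between windows at -0.03 ± 0.05 (interval from -0.16 to 0.09) and GND2 (YGR256W) was lower at -2.37 ± 0.30. Transaldolase TAL1 (YLR354C) was lower at -0.24 ± 0.04 (0.59 with poly-A and 0.014 with median scaling) and its paralogue NQM1 (YGR043C) at -3.47 ± 0.34. RKI1 (YOR095C) (1.93 ± 0.08) and SHB17 (YKR043C) (1.10 ± 0.06), both of ribose synthesis, were higher. ZWF1 (YNL241C), the glucose-6-phosphate dehydrogenase that opens the pathway, was lower (-0.55 ± 0.05; 0.27 with poly-A scaling) and RPE1 (YJL121C), the epimerase, was not called (-0.03 ± 0.07, interval from -0.21 to 0.15), both named after their values were seen. The list as a whole had 8 of 14 genes lower and 4 higher (median -0.40, -0.15 with median scaling and 0.43 with poly-A scaling).

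**Figure D3:**
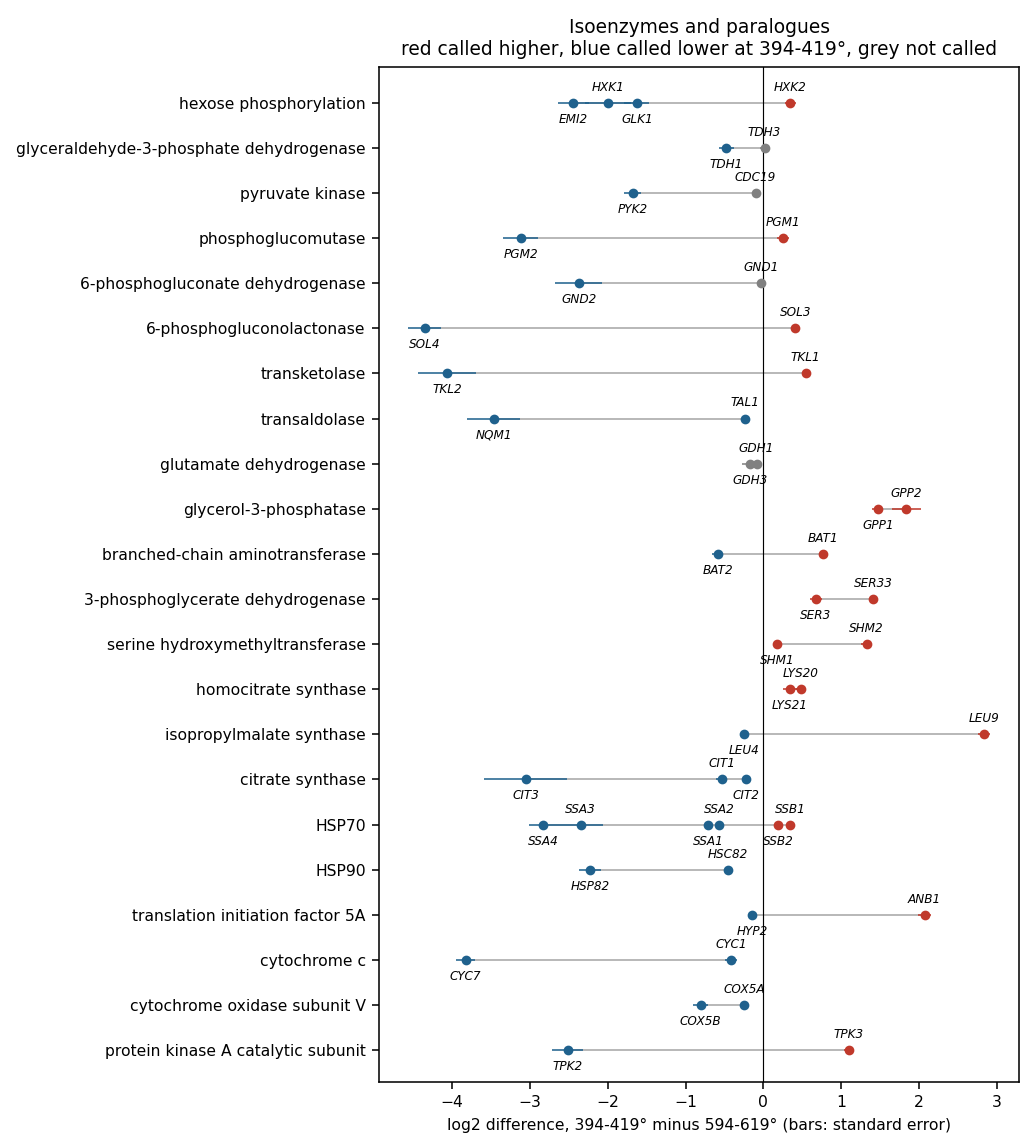
Differences (log2, 394-419° minus 594-619°, points, with standard errors as bars) of the members of 22 sets of isoenzymes or paralogues, red where called higher, blue where called lower and grey where not called. In sets such as transketolase and 6-phosphogluconolactonase one member lies near 0 or above and another below -2; with poly-A scaling every point lies higher, and some blue points cross 0.

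Elsewhere, too, paralogues parted. Of the leucine pathway's first enzymes, LEU9 (YOR108W) read 4524, 5284 and 5341 against 692, 688 and 731 (2.84 ± 0.08) and LEU4 (YNL104C) was lower by little (-0.25 ± 0.04; 0.59 with poly-A and 0.012 with median scaling). Branched-chain aminotransferase BAT1 (YHR208W), the mitochondrial one, was higher at 0.77 ± 0.05 and the cytosolic BAT2 (YJR148W) lower at -0.59 ± 0.07 (0.24 with poly-A scaling). Serine pathway pairs moved together and unequally: SER33 (YIL074C) differed by 1.41 ± 0.06 and SER3 (YER081W) by 0.67 ± 0.08, cytosolic SHM2 (YLR058C) by 1.33 ± 0.07 and mitochondrial SHM1 (YBR263W) by 0.18 ± 0.05. Both homocitrate synthases were higher, LYS20 (YDL182W) at 0.48 ± 0.05 and LYS21 (YDL131W) at 0.34 ± 0.09. Glutamate dehydrogenases GDH1 (YOR375C) (-0.09 ± 0.04, interval from -0.19 to 0.02) and GDH3 (YAL062W) (-0.18 ± 0.10, interval from -0.41 to 0.06) were not called. The hypoxic form of translation factor 5A, ANB1 (YJR047C), read 589.8, 702 and 592 against 149.7, 152 and 140.1 (2.07 ± 0.08), and the aerobic form HYP2 (YEL034W) was at -0.15 ± 0.05 (0.69 with poly-A and 0.11 with median scaling).

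Storage carbohydrate genes were low at 394-419°. Of 10 trehalose genes 9 were lower, all 9 by 2-fold or more (median -2.23). TSL1 (YML100W), a regulatory subunit of the synthase complex, read 422, 413 and 707 against 8208, 7799 and 7735 (-3.99 ± 0.21). TPS1 (YBR126C), the synthase, read 1083, 1030.5 and 2126 against 10517, 10142 and 10444 (-2.96 ± 0.27). PGM2 (YMR105C), the main phosphoglucomutase, differed by -3.12 ± 0.22, while the minor form PGM1 (YKL127W) was the only member higher (0.25 ± 0.08, but -0.046 with deposited values). In each of TSL1, TPS1 and PGM2 the array at 419.2° was already the highest of its window. Of 16 glycogen genes 15 were lower, 13 by 2-fold or more (median -1.96). Synthesis and breakdown moved together here: the branching enzyme GLC3 (YEL011W) differed by -3.10 ± 0.35 and glycogen phosphorylase GPH1 (YPR160W) by -3.14 ± 0.27. GLC3 read 1235, 1133 and 2908 at 394-419°, rising, and GPH1 read 1828, 967 and 878, falling. PSK2 (YOL045W), a kinase that restrains glycogen synthase, was the one higher member (0.68 ± 0.12).

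Genes for growth on acetate and other simple carbon, and for making glucose from them, were lower for 21 of 25, 15 by 2-fold or more (median -1.34). The acetate transporter ADY2 (YCR010C) read 2835, 1189.7 and 1114 against 16646, 16409 and 16646 (-3.41 ± 0.35), carnitine acetyltransferase CAT2 (YML042W) read 2455, 1255 and 746 against 13640.2, 13330.0 and 13619.8 (-3.36 ± 0.40), and the 2-methylisocitrate lyase ICL2 (YPR006C) differed by -2.63 ± 0.22. Levels at 594-619° were nearly flat in all 3, and those at 394-419° still fell after the first array. The higher members were DAL7 (YIR031C), a malate synthase of allantoin use (5174, 5305 and 3731 against 1165, 1214 and 1203, 1.97 ± 0.14), and the mitochondrial aldehyde dehydrogenase ALD5 (YER073W) (0.81 ± 0.12).

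Peroxisome and fatty acid oxidation genes were lower for 37 of 43, 26 by 2-fold or more (median -1.21). After PXA2 and CTA1, POX1 (YGL205W), the acyl-CoA oxidase that starts the oxidation cycle, read 1520.1, 596 and 424 against 13098, 13662 and 13531 (-4.20 ± 0.44, adjusted p = 0.000182). Its signals fell across the 3 arrays at 394-419°. The 4 higher genes included the peroxins PEX21 (YGR239C), of protein import (1.16 ± 0.18), PEX31 (YGR004W), of peroxisome size control (0.60 ± 0.09), and PEX25 (YPL112C), of peroxisome proliferation (0.57 ± 0.06). PEX21 read 3740.0, 4098 and 6152, rising, against 2013, 2022 and 2061.

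Mitochondrial genes were mostly lower by small amounts. Differences ran from -1.19 to -0.11 for mitochondrial ribosomal proteins and from -3.83 to 0.056 for the respiratory chain and ATP synthase. Of 70 mitochondrial ribosomal proteins 67 were lower (median -0.51, 1 by 2-fold or more), but the median was 0.083 with poly-A scaling. PET123 (YOR158W) of the small subunit read 1288, 1407 and 1442 against 3258, 3277 and 2925 (-1.19 ± 0.07), MRPL28 (YDR462W) differed by -0.97 ± 0.12 and MRPS16 (YPL013C) by -0.91 ± 0.05, and these 3 stayed negative with poly-A scaling. Of 38 respiratory chain and ATP synthase genes 34 were lower, with a median of -0.36 (-0.12 with median and 0.46 with poly-A scaling). Of the 5 that were lower by 2-fold or more, the largest differences were in CYC7 (YEL039C), the hypoxic form of cytochrome c, which read 145, 119 and 164 against 1929, 2133 and 2041 (-3.83 ± 0.12), the external NADH dehydrogenase NDE2 (YDL085W) (-3.63 ± 0.37) and STF2 (YGR008C), a factor tied to the ATP synthase inhibitor (-3.55 ± 0.27). The aerobic cytochrome c gene CYC1 (YJR048W) was lower by far less (-0.41 ± 0.07, 0.41 with poly-A scaling). Of the forms of oxidase subunit V, hypoxic COX5B (YIL111W) differed by -0.81 ± 0.10 and aerobic COX5A (YNL052W) by -0.25 ± 0.05 (0.57 with poly-A scaling). The hypoxic forms thus did not move as one: ANB1 and AAC3 (YBR085W), the hypoxic ADP/ATP carrier (278, 199.6 and 98.8 against 66.3, 40.7 and 59.1, 1.67 ± 0.39), were high where CYC7 and COX5B were low.

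Among tricarboxylic acid cycle genes 14 of 19 were lower (median -0.53, and 0.32 with poly-A scaling). Among genes of the 2-oxoglutarate dehydrogenase complex, KGD1 (YIL125W) (3796, 3438 and 3851 against 9476, 9004 and 8852, -1.30 ± 0.06) and KGD2 (YDR148C) (-1.34 ± 0.09) stayed lower under the 3 other scalings. Citrate synthases ranged from CIT3 (YPR001W), which read 3905, 1542 and 794 against 14105, 13816 and 14146 (-3.06 ± 0.54), to CIT1 (YNR001C) (-0.53 ± 0.07) and peroxisomal CIT2 (YCR005C) (-0.22 ± 0.05), the last pair turning to 0.32 and 0.65 with poly-A scaling and CIT2 to 0.067 with median scaling. The higher ones were the isocitrate dehydrogenase IDP1 (YDL066W) (0.25 ± 0.08) and pyruvate carboxylase PYC1 (YGL062W) (0.17 ± 0.06). Heme and hypoxic genes showed no common direction, with 9 of 23 higher and 8 lower (39.1% and 34.8%, against 39% and 39.5% of all genes tested). Ferrochelatase HEM15 (YOR176W), the last enzyme of heme synthesis, was lower (-1.11 ± 0.07), as were HAP5 (YOR358W) (-0.90 ± 0.11) and HAP2 (YGL237C) (-0.84 ± 0.11) of the activator of respiratory genes.

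Autophagy genes were lower for 30 of 31, 17 by 2-fold or more (median -1.20). ATG7 (YHR171W), the E1-like enzyme of both conjugation systems, read 189, 183 and 350.2 against 1763, 1935 and 1778 (-2.98 ± 0.25). The cargo receptors ATG34 (YOL083W) (-2.78 ± 0.21) and ATG39 (YLR312C), of the perinuclear reticulum (-2.63 ± 0.12), followed. ATG5 (YPL149W) alone was higher, by 0.18 ± 0.05, but lay at -0.026 with deposited values. Of 14 vacuolar hydrolase genes 12 were lower (median -0.99), led by TFS1 (YLR178C), an inhibitor of carboxypeptidase Y (-2.90 ± 0.14), the mannosidase AMS1 (YGL156W) (-2.86 ± 0.27) and acid trehalase ATH1 (YPR026W) (902, 715 and 815 against 5527, 5543 and 5685, -2.79 ± 0.09). The proteasome was lower for 31 of 33 genes by a small, even step (median -0.52), which turned to 0.24 with poly-A scaling. RPT1 (YKL145W) (-0.83 ± 0.05), RPT2 (YDL007W) (-0.73 ± 0.06) and the activator of these genes, RPN4 (YDL020C) (2862, 3796 and 4869, rising, against 6491, 6463 and 6694, -0.80 ± 0.18), were the lowest and kept their sign.

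Of 33 heat shock and chaperone genes 27 were lower, 17 by 2-fold or more (median -1.03). HSP42 (YDR171W), a small heat shock protein, read 1038, 828 and 1337 against 9944, 9892 and 10006 (-3.25 ± 0.17), and the nucleotide exchange factor SSE2 (YBR169C) differed by -3.23 ± 0.12. Within the HSP70 family the stress-induced SSA4 (YER103W) (-2.83 ± 0.19) and SSA3 (YBL075C) (-2.35 ± 0.29) were far lower, and SSA1 (YAL005C) (-0.71 ± 0.05) and SSA2 (YLL024C) (-0.57 ± 0.05) less so, the last 2 turning to 0.092 and 0.24 with poly-A scaling. The forms bound to translating ribosomes, SSB1 (YDL229W) (0.34 ± 0.05, from a probe set that can match several genes) and SSB2 (YNL209W) (0.19 ± 0.05), were higher. HSP90 showed the same order, with inducible HSP82 (YPL240C) at -2.23 ± 0.15 and constitutive HSC82 (YMR186W) at -0.45 ± 0.05 (0.40 with poly-A scaling). Oxidative defence genes were lower for 22 of 30 (median -0.72). Cytosolic catalase CTT1 (YGR088W) read 245.5, 166 and 204 against 2929, 3134 and 3361 (-3.94 ± 0.14) and the peroxidase GPX1 (YKL026C) differed by -3.03 ± 0.07. The higher members were cytosolic glutaredoxin GRX3 (YDR098C) (0.78 ± 0.05), thioredoxin reductase TRR1 (YDR353W) (0.66 ± 0.07) and GPX2 (YBR244W) (0.53 ± 0.09).

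Regulators of growth and stress were called on both sides, with 25 of 36 lower and 10 higher (median -0.44, and 0.19 with poly-A scaling). IFH1 (YLR223C), a coactivator of ribosomal protein genes, read 4087, 3172 and 2075 against 736, 718 and 671 (2.08 ± 0.23). USV1 (YPL230W), a stress transcription factor, read 199, 245.5 and 514 against 2832, 2534 and 2609.8 (-3.17 ± 0.34), and XBP1 (YIL101C), a repressor of cyclin genes under stress, differed by -3.10 ± 0.22. In the cyclic AMP pathway, paralogues again lay apart. RAS1 (YOR101W) read 3302, 3179.5 and 2368 against 754, 760.1 and 728 (1.96 ± 0.13), and RAS2, which is named after its values were seen, read 2091, 1943 and 2263 against 6276, 6303 and 6116 (-1.57 ± 0.07). The protein kinase A subunit genes TPK3 (YKL166C) and TPK2 (YPL203W) differed by 1.10 ± 0.07 and -2.52 ± 0.20. TPK3 read 1913, 1970.0 and 1762 against 895, 907 and 829, and TPK2 read 766, 734 and 1235 against 5079, 4986 and 5177. The sum of such transcripts cannot be had from array signals, since probe sets differ in response.

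**Figure D4:**
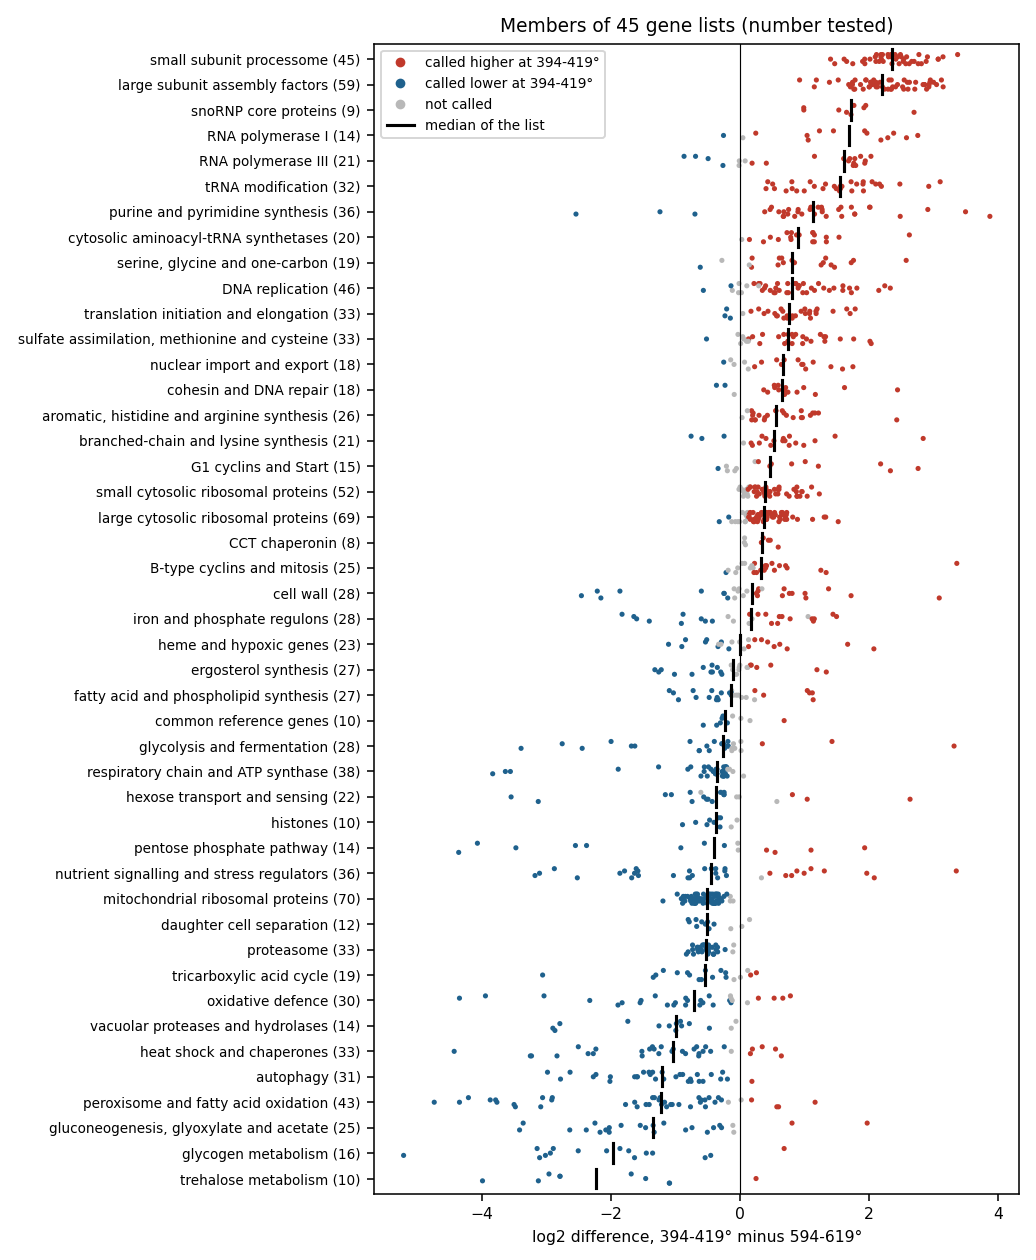
Each row is 1 of 45 gene lists (number of genes tested in brackets), ordered by median; points are members' differences (log2, 394-419° minus 594-619°), coloured by call, and black bars are medians. Medians run from 2.35 for the small subunit processome to -2.23 for trehalose metabolism; with poly-A scaling every median is higher, and those of 14 of the lists turn from negative to positive.

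Lists for membranes, wall and ion uptake had no common direction. Their counts are to be read against 39% of all genes tested called higher and 39.5% called lower. Ergosterol synthesis had 12 of 27 genes lower and 6 higher. Both HMG-CoA reductases, which set the rate of sterol synthesis, were lower, HMG1 (YML075C) at -1.32 ± 0.09 and HMG2 (YLR450W) at -1.26 ± 0.07, while the sterol-responsive activator UPC2 (YDR213W) (1.34 ± 0.11) and ERG4 (YGL012W), of the final step (1.19 ± 0.09), were higher. HMG1 read 4450.4, 4699.7 and 5511 against 12701, 11933 and 11784, and ERG4 read 9280.2, 10311 and 11758 against 4477, 4534 and 4648. Fatty acid and phospholipid synthesis had 14 of 27 lower and 6 higher, the latter including elongase ELO2 (YCR034W) (1.12 ± 0.06) and the activator INO2 (YDR123C) (1.08 ± 0.13), and the former ARE2 (YNR019W), which stores sterol as ester (-1.09 ± 0.09). Cell wall genes were higher for 13 of 28 and lower for 8. UTR2 (YEL040W), which links chitin to glucan, read 6614, 7096 and 6514 against 727, 802 and 853 (3.08 ± 0.08), and the mannoproteins CWP1 (YKL096W) (-2.45 ± 0.09), SPI1 (YER150W) (-2.21 ± 0.13) and YGP1 (YNL160W) (-2.15 ± 0.20) were lower. Of 28 genes for iron and phosphate 13 were higher and 9 lower (median 0.17), 5 and 4 of them by 2-fold or more. The largest difference upwards was 1.495. The lower genes included heme oxygenase HMX1 (YLR205C) (-1.83 ± 0.13), PHM8 (YER037W) (-1.60 ± 0.19) and SPL2 (YHR136C) (-1.64 ± 0.24).

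Of 10 genes often used as references, 6 were called lower and 1 higher, and none reached 2-fold. Over all genes tested 39.5% were called lower and 39% higher, so a call is not particular to these genes. Their median was -0.23 and turned to 0.057 with median scaling and 0.64 with poly-A scaling. TUB1 (YML085C), for alpha-tubulin, read 6036, 6537 and 6688 against 9693, 9294 and 9543 (-0.57 ± 0.06, but 0.20 with poly-A scaling). ALG9 (YNL219C) (-0.36 ± 0.06), UBC6 (YER100W) (-0.30 ± 0.06), PDA1 (YER178W) (-0.28 ± 0.04), TFC1 (YBR123C) (-0.26 ± 0.06) and FBA1 (YKL060C) (-0.20 ± 0.05) were lower by less, and all 5 were positive with poly-A scaling, as were PDA1 (0.012) and FBA1 (0.10) with median scaling. TRS65 (YGR166W) was higher by 0.68 ± 0.10. ACT1 (YFL039C) (-0.11 ± 0.05, interval from -0.23 to 0.01), TAF10 (YDR167W) (0.16 ± 0.06, interval from 0.01 to 0.30) and TDH3 were not called. The labels give mating type MATa. The 6 a-specific genes were above background, and all 6 were higher at 394-419°, with the protease BAR1 (YIL015W) at 1.79 ± 0.11, the pheromone exporter STE6 (YKL209C) at 1.19 ± 0.09, the receptor STE2 (YFL026W) at 1.00 ± 0.06, and MFA1 (YDR461W), ASG7 (YJL170C) and MFA2 (YNL145W) at 0.74 ± 0.12, 0.59 ± 0.22 and 0.46 ± 0.05. The 4 alpha-specific genes were not at background either, with signals of 2188, 2369 and 2342 against 586, 597 and 695 for MF(ALPHA)1 (1.88 ± 0.08), 747, 758 and 766 against 1043, 1109 and 1208 for SAG1, 575, 600.1 and 572 against 591, 573 and 615 for STE3 and 119.7, 63 and 67.8 against 75.8, 88.6 and 99.5 for MF(ALPHA)2. What those signals come from was not tested.

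The windows were not equally settled. The median gene moved by 0.17 (absolute log2) from the first to the last array at 394-419° and by 0.071 at 594-619°, over the same time. At 394-419° 51 genes rose and 83 fell by 2-fold or more, against 4 and 4 at 594-619°. Of the 705 genes that were at least 2-fold lower, 40 were still falling by 2-fold or more between 394.3° and 419.2° and 25 were already rising by as much. Those falling included POX1, CIT3, CAT2 and TKL2, and those rising included GLC3 and 2 genes named after their values were seen, the glycogen synthase GSY1 (173, 156 and 599.8 against 1984, 1868 and 2001) and RGI1, a factor of respiratory growth (696, 1099 and 3295 against 9314, 8183 and 8017). The glycogen and trehalose lists moved by a median of 0.18 and 0.45 between the first and last array against -0.38 for the gluconeogenesis and acetate list. On the high side the small subunit processome was past its top, with a median step of -0.36, while Start genes (0.34) and cohesin and repair genes (0.37) were still climbing.

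Placed in the whole cycle, 394-419° held the extreme array for most of these genes and 594-619° for few. Of the 748 genes at least 2-fold higher, 496 had the highest of their 32 arrays at 394-419° and another 151 on the last array of the series, labelled 743.8°. That array had a median signal of 1435.5 as deposited and a 3' to 5' actin log2 ratio of 0.75, against 0.30 to 0.43 on the 6 arrays compared. The lowest array of the 748 genes lay at 469-494° for 367 of them and at 594-619° for 51. Of the 705 genes at least 2-fold lower, 581 had their lowest array at 394-419°, and the highest lay at 469-494° for 292, at 506-531° for 240 and at 594-619° for 22. These places are a description, since the difference between the windows chose the genes. Over all 5377 genes tested, the highest array lay at 394-419° for 1307 and the lowest for 1298, against 115 and 119 at 594-619°. The difference between the windows covered a median of 61.7% of the 32-array range for the higher genes and 75.3% for the lower ones. The median of the glycogen list, for instance, stood at -1.59, -1.61 and -1.40 relative to its mean over 32 arrays at 394-419° and at 0.45, 0.39 and 0.33 at 594-619°.

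**Figure D5:**
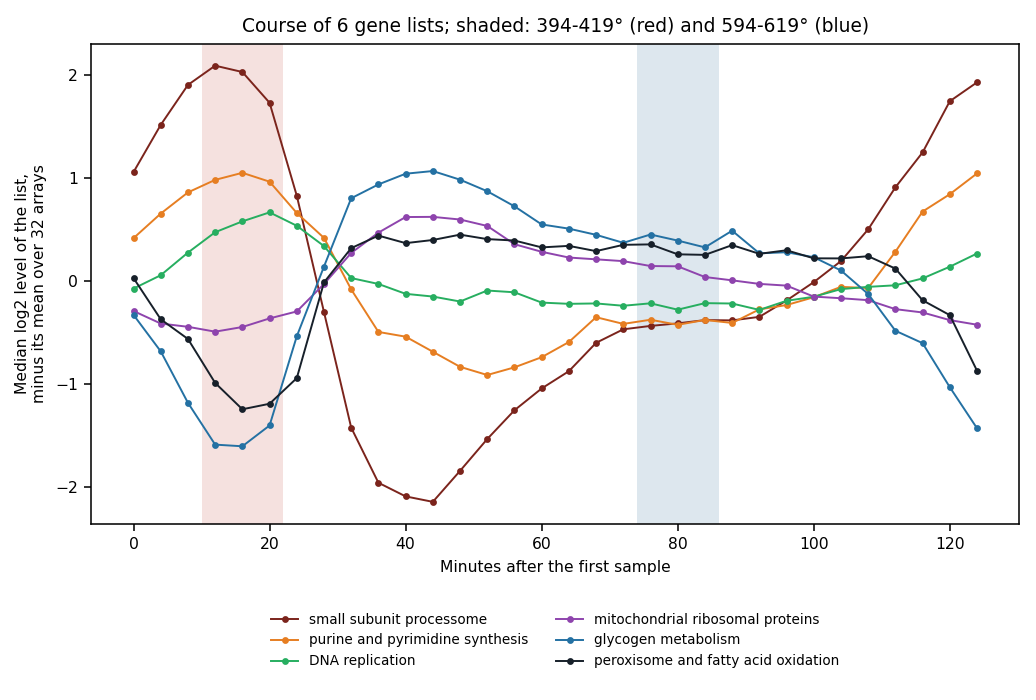
Median log2 level of each of 6 gene lists, minus the mean of that median over 32 arrays, against minutes after the first sample. The shaded bands mark the 3 arrays at 394-419° (red) and at 594-619° (blue). The processome, nucleotide and replication lists are high and the glycogen, peroxisome and mitochondrial ribosomal lists low in the red band, where most curves bend, whereas in the blue band all 6 run nearly level.

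Other features differed little between the classes. Median gene length was 1249.5 bases for the genes at least 2-fold higher, 1203 for those lower and 1245 for all tested. Genes known only by a locus name made up 9.09% of the higher class, 11.5% of the lower and 8.5% of all. Among 457 genes that differed by 4-fold or more there were 44 pairs of neighbours in the genome, of which 32 (72.7%) moved in the same direction. Over all called genes that share was 53.9% of 3022 neighbouring pairs. The difference between these shares was not tested. FAT3 and PXA2 were such a pair. Opposite neighbours included UTR2 and CYC7, whose products serve the wall and respiration.

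For 1156 genes the test did not pass. A difference beyond 0.5 lay outside the 95% confidence interval for 926 of these, and the interval of the rest was wider. Of the called genes 1658 differed by less than 1.5-fold. Only 6 genes differed by 2-fold or more without being called. Among the called genes named here, 9 lost the call when 1 of the 6 arrays was left out: PGM1, PYC1, ASG7, HYP2, RPL43A, RRN10, FBA1, IDP1 and LYS21.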

How the data were processed

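Total RNA of 32 samples of 1 culture was hybridised to Affymetrix Yeast Genome 2.0 arrays, 1 array a sample, 5 µg of labelled cRNA each per the labels' protocols. The files hold 1 deposited intensity per probe set, on a linear scale. The submitters' processing notes name GCOS, without its version, summary method or scaling. Of 10928 probe sets, 5498 name 1 S. cerevisiae gene in the array annotation; names and genome neighbours came from the RefSeq R64 gene table, and no coordinates, promoters or proteins were used here.

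From these intensities log2(signal + 1.9) was computed, 1.9 being the 10th percentile of all values. Quantile normalization over the probe sets of S. cerevisiae was used since array medians spanned 0.704 on the log2 scale, over a limit of 0.5. Each of 5449 genes was represented by its brightest probe set. Tests covered the 5377 genes whose mean exceeded 4.44, which 95% of fission yeast probe sets do not reach; 110 of these came from probe sets that can match several genes. Fold changes are on the scale of log2(signal + 1.9) and understate those of dim genes. Whether they also understate those of the brightest genes, such as TDH3 at 14811 to 16378, was not tested. The windows were compared with limma 3.58.1 in R 4.3.3 (lmFit and eBayes, Benjamini-Hochberg adjusted p under 0.05), with the 6 arrays alone. With 3 arrays against 3, an exact permutation test of a single gene cannot go below p = 0.1. The number of arrays limits the precision.

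In data simulated for this comparison with 5377 genes, the fit called 0.116% of unchanged genes, and 22%, 62%, 88% and 96% of genes with log2 differences of 0.25, 0.5, 1 and 2. Neighbouring real samples are not independent, which that simulation leaves out. It also held 5177 unchanged genes and 50 of each size of difference, whereas 78.5% of genes were called in the real data. The Benjamini-Hochberg adjustment depends on that share, so the simulated rates cannot be taken as those of the real comparison.

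The 47 gene lists (1250 entries found) and 22 isoenzyme sets, and the windows themselves, were chosen with earlier results of these data known. Lists are described by counts and medians, with no set test. Genes named in the text come from a fixed rule: the 10 largest differences in each direction among called genes without overlap of the arrays, up to 3 called genes of each list with the largest difference and up to 3 against its majority, and the isoenzyme and reference genes. Others are marked as named after their values were seen. Of the genes the rule gives, 15 are not reported here. Alternatives were the scaling, filter, pseudocount, probe set rule, running number or phase slope as terms, the fit's samples and moderation, wider windows and leaving out each array; array weights and leaving out shared probe sets were added after seeing the data. Tests of genes used no control, fission yeast or unnamed probe set.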

Additional observations from a re-analysis of the deposited data

Results flagged for a closer look

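Probe sets outside the tests of genes also carried signal. Of 3517 probe sets without a gene name in the tables used, 431 (12.3%) had a mean above the background set by the fission yeast probe sets, a level that 88 of the fission yeast probe sets passed by its definition. Of the 431, 178 (41.3%) were called between the windows with arrays scaled to a common median, 36 by at least 2-fold higher and 55 by at least 2-fold lower at 394-419°. With the same scaling 4215 of the 5377 genes tested were called, a larger share, 760 by at least 2-fold higher and 740 by at least 2-fold lower. What these probe sets measure was not tested.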

How the results depend on the processing

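The 4 counts of genes called moved by over 1.5 times under poly-A scaling alone, to 3441 higher and 819 lower, with 1628 and 368 by at least 2-fold; 372 of the 4221 calls were then called in the opposite direction. With 18 alternatives that tested all 1453 genes called at least 2-fold, 1441 to 1453 of them kept call and direction. Leaving out 1 array in turn gave 1948 to 2153 genes higher, 1961 to 2173 lower, 720 to 757 at least 2-fold higher and 689 to 740 at least 2-fold lower. Of the genes named, 9 lost the call without 1 of the arrays: PGM1 (0.17 to 0.30, 394.3° or 419.2°), PYC1 (0.13 to 0.21, 394.3°, 406.8°, 593.8°, 606.2° or 618.7°), ASG7 (0.34 to 0.82, 406.8°, 593.8°, 606.2° or 618.7°), HYP2 (-0.17 to -0.13, 406.8°, 593.8°, 606.2° or 618.7°), RPL43A (-0.20 to -0.15, 406.8°, 593.8° or 618.7°), RRN10 (-0.35 to -0.18, 406.8°, 419.2°, 593.8°, 606.2° or 618.7°), FBA1 (-0.22 to -0.17, 593.8°), IDP1 (0.18 to 0.31, 593.8°, 606.2° or 618.7°), LYS21 (0.26 to 0.42, 618.7°). The brackets give the range of the log2 difference over the 6 and the arrays whose loss ends the call. No paired analysis was possible because the labels give no replicate numbers that the windows share.

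With poly-A scaling these list medians changed sign: histones 0.41, daughter cell separation 0.19, hexose transport and sensing 0.19, glycolysis and fermentation 0.56, pentose phosphate pathway 0.43, tricarboxylic acid cycle 0.32, respiratory chain and ATP synthase 0.46, mitochondrial ribosomal proteins 0.083, heme and hypoxic genes 0.62, nutrient signalling and stress regulators 0.19, proteasome 0.24, ergosterol synthesis 0.69, fatty acid and phospholipid synthesis 0.70, common reference genes 0.64 and alpha-specific genes 0.31. Median scaling changed that of heme and hypoxic genes 0.038, ergosterol synthesis 0.11, fatty acid and phospholipid synthesis 0.13 and common reference genes 0.057, deposited values that of iron and phosphate regulons -0.0081, and the median of heme and hypoxic genes, near 0, was also positive with 5 arrays against 5 (0.024) and ran from -0.031 to 0.014 when 1 array was left out in turn. Of genes named, poly-A scaling turned ACT1 0.73, ADE16 0.021, ALG9 0.27, BAT2 0.24, CDC19 0.76, CIT1 0.32, CIT2 0.65, COX5A 0.57, CTS1 0.029, CYC1 0.41, FBA1 0.68, GDH1 0.77, GDH3 0.60, GND1 0.83, HSC82 0.40, HTA1 0.34, HYP2 0.69, LEU4 0.59, PDA1 0.59, RPE1 0.78, RPL15B 0.31, RPL43A 0.67, RRN10 0.094, SSA1 0.092, SSA2 0.24, STE3 0.36, STR2 0.12, TAL1 0.59, TDH1 0.37, TFC1 0.29, TFC4 0.065, TUB1 0.20, UBC6 0.32 and ZWF1 0.27. Median scaling turned CIT2 0.067, FBA1 0.10, GDH1 0.19, GND1 0.25, HYP2 0.11, LEU4 0.012, PDA1 0.012, RPE1 0.20, RPL43A 0.094 and TAL1 0.014, and deposited values ATG5 -0.026, PGM1 -0.046 and TFC7 -0.14. The labels do not say how the poly-A controls were added, and the cause of their difference between the windows was not tested. Signal over background limits the dimmest genes, which the filter leaves near the level of fission yeast probe sets. The promoter motifs planned for were not run, since no promoter sequences were used here.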
